A study of Homo sapiens with 12 samples.

Results

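The genes described here are 33 genes of cholesterol synthesis and lipid supply, taken by symbol from a table of 60234 genes. They cover the mevalonate arm (7 genes), the squalene and sterol arm (10), SREBP control (4), cholesterol traffic and efflux (5) and fatty acid synthesis and desaturation (7). RNA was sequenced from cultured MDA-MB-231 cells, a widely used human line from a breast cancer of the triple-negative kind. Fast cells were captured from that line according to how they moved, and parental cells are the line they came from. Each population had 3 libraries in batch 1 and 3 in batch 2, so 6 fast and 6 parental libraries, and no other treatment is named for any of them. All come from 1 cell line, the number of cells captured is not given, and the series speaks of technical replicates within batches and of 2 biological replicates without saying whether the batches are those. The p-values rest on the spread between libraries and need not carry over to new captures.

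Cholesterol is built from acetyl-CoA. Enzymes of the mevalonate arm make isoprenoid units, which are joined into farnesyl diphosphate, the branch point to sterols, to prenylated proteins and to other isoprenoids. The sterol arm joins farnesyl units into squalene, closes the rings to lanosterol and trims that to cholesterol. The pathway is switched on by the SREBP transcription factors, which SCAP carries from the endoplasmic reticulum to the Golgi for cleavage when membrane sterol is low, and which INSIG proteins hold back when it is high. Because the synthesis genes share this switch, they are commonly read as a block; SREBP2 is best known for sterol genes and SREBP1 for fatty acid genes.

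The 12 libraries held 53267145 to 75944907 counts each, and the 33 genes took 0.299% to 0.331% of them. Mitochondrial transcripts made up 2.09% to 3.41% of a fast library and 2.08% to 2.91% of a parental one. The mesenchymal filament VIM averaged 6912 CPM in the fast libraries and 5050 CPM in the parental ones, where CPM is a gene's count scaled to a common library total, corrected by the TMM method. The epithelial cadherin CDH1 had 8 counts over the 6 fast and 3 over the 6 parental libraries. By edgeR the keratin KRT18 was higher (adjusted p = 7.19e-10), at 358 CPM on average in fast libraries, against 305.7 CPM in parental ones, and EPCAM averaged 11.22 CPM in fast cells, against 11.15 CPM in parental cells (adjusted p = 0.897). Oestrogen receptor ESR1 averaged 0.139 CPM in each population, whereas the progesterone receptor PGR had 2.05 CPM on average in fast cells, against 0.477 CPM in parental cells. The leukocyte markers PTPRC and CD3E had 7 and 2 counts over the fast libraries and 5 and 2 over the parental ones, and the fat cell hormone ADIPOQ had 8 over the fast and 0 over the parental libraries. The fat droplet gene PLIN1 had 72 counts over the fast and 77 over the parental libraries (edgeR adjusted p = 0.831). Of the fibroblast markers, COL1A1 averaged 9.32 CPM in fast cells, against 14.2 CPM in parental cells, while COL1A2 had 1 count over the fast and 22 over the parental libraries. PDGFRB averaged 0.977 CPM in fast cells, against 0.869 CPM in parental cells, and was not called (edgeR adjusted p = 0.329). The endothelial cadherin CDH5 had 18 counts over each, and the liver gene ALB had 14 over the fast and 8 over the parental ones. The part of these differences in the results below was not tested.

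The members did not move as a block. Over both batches 12 members rose in fast cells, 15 fell and 5 did not pass the test (edgeR quasi-likelihood test, Benjamini-Hochberg adjusted p under 0.05 over 22668 genes tested). Across all genes tested 31.9% were called higher and 31.5% lower, 63.4% in all. ABCG1, a sterol exporter, was not tested, having 3 counts over the 6 fast and 8 over the 6 parental libraries. The median log2 fold change (fast over parental) of the 32 tested members was -0.02, and that of all tested genes was 0.01. The median size of change was 0.29 for the members and 0.32 for all tested genes. Only 5 members were called with a change of at least 1.5-fold (SC5D, PMVK, NSDHL, MVD and MVK), where 23.1% of all tested genes were, and 0 members reached 2-fold. In bulk RNA, less transcript per cell and fewer cells with the transcript cannot be told apart.

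Within batch 1, 11 members were called higher in fast cells and 15 lower, where 29.0% and 27.1% of all tested genes were, 56.1% in all. Within batch 2 the counts were 10 and 15, where 27.4% and 28.6% of all tested genes were called, 56.0% in all. Called in both batches with the same sign were 7 members that rose and 14 that fell, where 23.0% of all tested genes rose and 23.0% fell by that rule, 46.0% in all. The 6 fast libraries all lay above the 6 parental ones for 5 members (MVD, IDI1, LSS, NPC1 and ACLY) and all below for 11 (MVK, PMVK, FDPS, SQLE, CYP51A1, SC5D, NSDHL, INSIG1, SCAP, ELOVL6 and FADS1). Among all tested genes 18.8% lay fully above and 19.6% fully below.

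**Figure D1:**
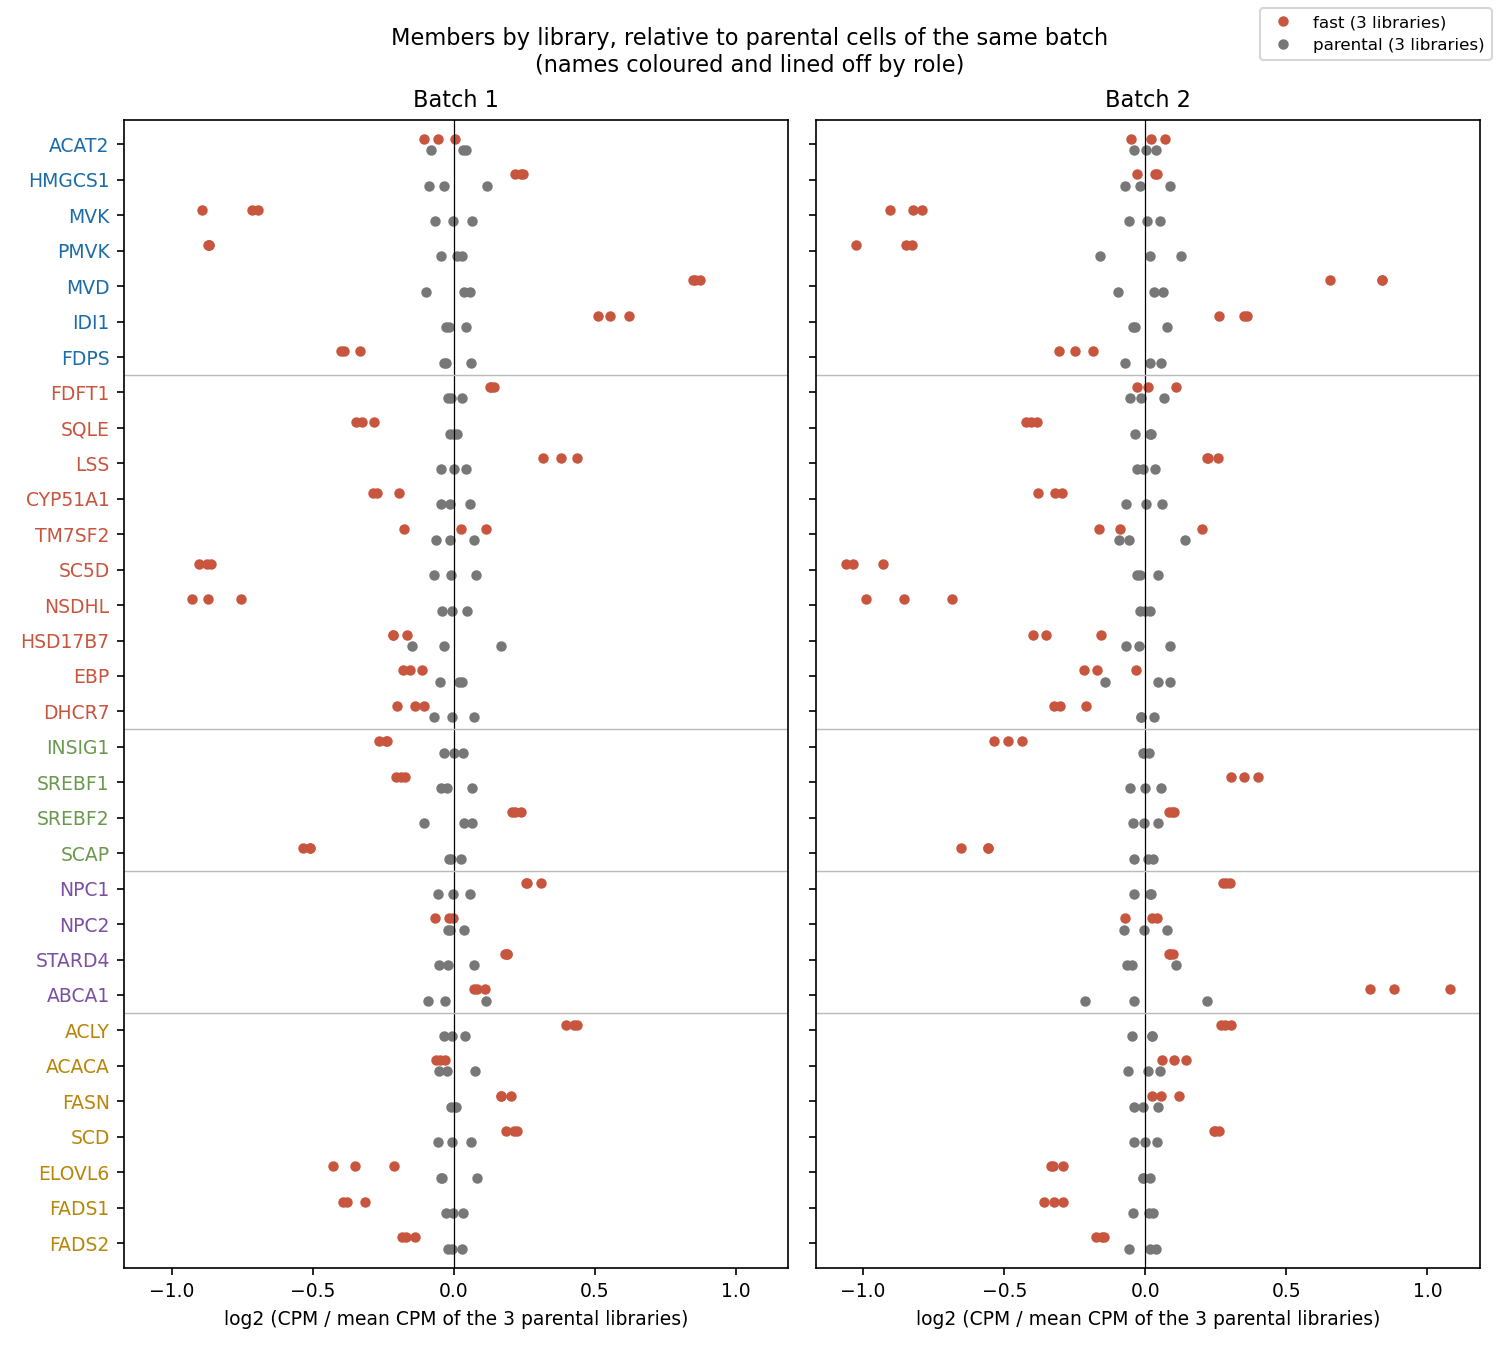
Each tested member in each library, as log2 of its CPM over the mean of the 3 parental libraries of the same batch (x axis), batch 1 left and batch 2 right; red points are fast and grey points parental libraries, and gene names (y axis) are coloured and lined off by role. SC5D, PMVK, NSDHL and MVK lie far left of their parental points in both batches and MVD far right, while SREBF1 lies left in batch 1 and right in batch 2.

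The promoters of 4 members are shown for comparison with what their transcripts did: SC5D had the largest fall, PMVK and MVD encode consecutive enzymes that moved in opposite directions, and SREBF2 encodes SREBP2, the factor best known for sterol genes. The sequences are from RefSeq (GRCh38.p14), 300 bases each around the start of the gene, mostly upstream of it, given 5′ to 3′ on the gene's strand. The counts were made on another build, so the positions serve only to place these windows. Capitals mark 3 motifs searched on both strands: a sterol element (TCACNCCAC), an E-box (CACGTG) and the CCAAT box, whose letters on the other strand read ATTGG. No motif contains another.
SC5D (chr11:121292521-121292820, plus strand): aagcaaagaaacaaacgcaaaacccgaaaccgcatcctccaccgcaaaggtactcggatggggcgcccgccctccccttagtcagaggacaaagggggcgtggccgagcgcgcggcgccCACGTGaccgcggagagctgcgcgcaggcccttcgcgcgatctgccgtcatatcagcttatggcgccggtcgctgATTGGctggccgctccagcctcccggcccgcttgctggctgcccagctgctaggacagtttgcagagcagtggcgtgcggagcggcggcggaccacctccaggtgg
PMVK (chr1:154936670-154936969, minus strand): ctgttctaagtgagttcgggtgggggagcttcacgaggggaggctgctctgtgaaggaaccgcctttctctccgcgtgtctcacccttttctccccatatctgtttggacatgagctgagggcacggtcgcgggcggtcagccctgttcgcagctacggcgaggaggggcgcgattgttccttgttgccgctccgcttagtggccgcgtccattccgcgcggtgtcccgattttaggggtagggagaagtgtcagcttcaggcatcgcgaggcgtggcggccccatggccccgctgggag
MVD (chr16:88663042-88663341, minus strand): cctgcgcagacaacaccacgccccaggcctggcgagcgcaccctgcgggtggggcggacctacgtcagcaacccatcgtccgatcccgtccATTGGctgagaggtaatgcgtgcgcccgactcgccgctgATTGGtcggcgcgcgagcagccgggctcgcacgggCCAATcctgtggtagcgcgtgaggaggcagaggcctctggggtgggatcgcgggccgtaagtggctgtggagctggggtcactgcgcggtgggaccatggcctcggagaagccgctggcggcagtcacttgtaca
SREBF2 (chr22:41832855-41833154, plus strand): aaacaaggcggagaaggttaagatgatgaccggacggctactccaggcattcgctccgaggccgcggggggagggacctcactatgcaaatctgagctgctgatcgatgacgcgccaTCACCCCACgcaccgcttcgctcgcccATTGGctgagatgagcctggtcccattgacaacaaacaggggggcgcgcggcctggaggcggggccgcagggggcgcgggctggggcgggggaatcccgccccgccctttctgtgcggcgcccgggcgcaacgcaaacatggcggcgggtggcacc
The SC5D window holds an E-box and a CCAAT box, that of MVD 3 CCAAT boxes, that of SREBF2 a sterol element and a CCAAT box, and that of PMVK none of these letters. RefSeq windows were at hand for 28 members, 38 windows in all because some genes have several starts. A CCAAT box was in 63.2% of these 38 windows and in 34.6% of all 35116 RefSeq windows. The E-box was in 15.8% against 7.26%, and the sterol element in 2.63% against 1.13%, SREBF2 being the only member with it. A match is a description of the letters, and no match says only that these letters are not in this window.

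In the mevalonate arm 3 of 7 members were higher in fast cells, 3 lower and 1 not called over both batches. Among all tested genes 31.9% were called higher and 31.5% lower. Measured against the median of 20 genes next to each on the chromosome, 3 members were called higher (MVD, IDI1 and FDPS). By that measure 3 were lower (ACAT2, MVK and PMVK) and 1 was not called (HMGCS1), where 5821 of all 21807 genes were higher and 6502 lower. The consecutive kinases MVK and PMVK fell, the decarboxylase MVD and the isomerase IDI1 after them rose, and FDPS, which makes farnesyl diphosphate, fell. The summed level of the 7 genes overlapped between populations, at 463.2 to 500.8 CPM in fast and 469.4 to 515.6 CPM in parental libraries.

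MVK (ENSG00000110921), mevalonate kinase, stood at 20.2, 17.7 and 19.96 CPM in fast libraries of batch 1 and 18.9, 17.9 and 19.3 CPM in those of batch 2. Parental libraries had 32.8, 31.3 and 34.3 CPM in batch 1 and 33.6, 34.7 and 32.1 CPM in batch 2. Every fast library lay below every parental one, at 0.573 of the parental level (log2 fold change -0.80 ± 0.04 SE, n = 6 libraries each, edgeR adjusted p = 7.92e-18). PMVK (ENSG00000163344), phosphomevalonate kinase, had 20.2, 20.2 and 20.2 CPM in fast libraries of batch 1 and 17.0, 19.2 and 19.5 CPM in those of batch 2. In parental libraries it had 35.8, 37.3 and 37.7 CPM, then 37.8, 35.0 and 31.0 CPM. The groups were again apart, with a log2 fold change of -0.88 ± 0.04 SE (edgeR adjusted p = 2.18e-18). MVK shares 306 exonic bases with MMAB on the opposite strand, itself at a log2 fold change of -0.49. No source used here says whether counting used the strand, so their reads cannot be told apart there.

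MVD (ENSG00000167508), which decarboxylates mevalonate diphosphate, went the other way. Fast libraries had 53.2, 52.99 and 53.9 CPM in batch 1 and 52.2, 59.3 and 59.2 CPM in batch 2. Parental libraries had 27.5, 30.6 and 30.2 CPM, then 34.6, 33.8 and 31.0 CPM. The lowest fast library stood well above the highest parental one, and the rise was 1.76-fold (log2 fold change 0.82 ± 0.04 SE, edgeR adjusted p = 3.92e-19). No other member rose as far over both batches. IDI1 (ENSG00000067064), the isomerase that balances the isoprenoid units, had 93.8, 96.5 and 101.2 CPM in fast libraries of batch 1 and 85.5, 91.4 and 90.9 CPM in those of batch 2. Its parental libraries had 67.9, 64.5 and 65.2 CPM, then 69.2, 75.2 and 69.5 CPM. The populations did not overlap, and the log2 fold change was 0.44 ± 0.04 SE (edgeR adjusted p = 3.08e-11). It overlaps IDI2-AS1 on the opposite strand by 643 exonic bases, an antisense gene at 8.93 CPM.

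FDPS ranged over 123.3, 126.2 and 134.4 CPM (lowest, median, highest) in fast and 145.1, 158.6 and 169.7 CPM in parental libraries, without overlap (log2 fold change -0.31 ± 0.03 SE, edgeR adjusted p = 7.38e-11). In the annotation 8 pseudogenes are named after FDPS, and it shares 693 exonic bases with RUSC1-AS1, so how many of its reads are its own is uncertain. HMGCS1, which makes HMG-CoA, had 33.7, 36.3 and 37.8 CPM in fast and 30.05, 33.4 and 36.5 CPM in parental libraries, which overlap. It was called higher over both batches (0.12 ± 0.04 SE, edgeR adjusted p = 0.0123) and in batch 1 (0.24, adjusted p = 0.00015), and not in batch 2 (0.02, adjusted p = 0.811). When the 3 libraries of a population within a batch were summed, the call over both batches was lost (edgeR adjusted p = 0.0965). ACAT2, the cytosolic thiolase that starts the pathway, was not called (-0.02, 95% interval -0.08 to 0.04, edgeR adjusted p = 0.597). It shares 397 exonic bases with TCP1, which stood at 411 CPM on average, while ACAT2 had 131.2 CPM in fast cells and 132.7 CPM in parental cells.

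Over both batches 31.9% of all tested genes were called higher and 31.5% lower. Of the 10 members of the squalene and sterol arm 2 rose, 7 fell and 1 was not called. Measured against the median of 20 genes next to each on the chromosome, 3 were called higher (TM7SF2, HSD17B7 and EBP), 4 lower (SQLE, CYP51A1, SC5D and NSDHL) and 3 were not called (FDFT1, LSS and DHCR7). Of all 21807 genes measured this way, 5821 were called higher and 6502 lower. The summed level of the arm was 409.8 to 439.1 CPM in fast and 450.2 to 503.3 CPM in parental libraries, so the ranges did not overlap. The median log2 fold change of the 10 genes was -0.23, with 0.01 for all tested genes. Those that fell are spread over the arm, from squalene epoxidation to the late steps on the sterol nucleus.

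SC5D (ENSG00000109929), a late sterol desaturase, had 19.9, 20.1 and 19.5 CPM in fast libraries of batch 1 and 20.9, 19.4 and 19.1 CPM in those of batch 2. The parental libraries had 38.5, 34.7 and 36.2 CPM, then 41.1, 39.0 and 39.3 CPM. The fast libraries were nearly level with each other and all far below the parental ones, at 0.52 of their level (log2 fold change -0.94 ± 0.04 SE, edgeR adjusted p = 2.15e-20). In batch 2 alone its log2 fold change was -1.005 ± 0.05 SE, and in batch 1 -0.88 ± 0.05 SE. The difference between the batches was not called (-0.13, edgeR adjusted p = 0.4).

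NSDHL (ENSG00000147383), an X-linked dehydrogenase of sterol demethylation, had 18.6, 19.4 and 21.0 CPM in fast libraries of batch 1 and 20.04, 22.0 and 24.8 CPM in those of batch 2. Parental values were 34.5, 35.3 and 36.6 CPM, then 40.3, 39.3 and 39.8 CPM. It fell to 0.557 of the parental level, with no overlap (log2 fold change -0.84 ± 0.04 SE, edgeR adjusted p = 3.34e-18). EBP (ENSG00000147155), the other X-linked member and the isomerase that shifts the sterol double bond, moved little. It had 43.1, 41.1 and 41.8 CPM in fast libraries of batch 1 and 41.0, 42.3 and 46.5 CPM in those of batch 2, against 47.2, 47.6 and 45.1 CPM and 49.1, 50.6 and 43.1 CPM in the parental ones. The batch 2 libraries overlap, and the log2 fold change was -0.14 ± 0.04 SE (edgeR adjusted p = 0.00151). This call was lost on sums of the 3 libraries (adjusted p = 0.0802). The call in batch 1 was lost without fast replicate 2, parental replicate 1 or parental replicate 2 of that batch (edgeR adjusted p = 0.0504 to 0.0747), and that in batch 2 without fast replicate 1 or 2 or parental replicate 1 or 2 (0.128 to 0.248).

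SQLE, squalene epoxidase, had 19.5, 18.9 and 18.7 CPM in fast libraries of batch 1 and 20.7, 20.4 and 20.9 CPM in those of batch 2. Parental libraries had 23.8, 23.9 and 23.5 CPM, then 27.7, 27.8 and 26.6 CPM. All fast libraries lay below all parental ones, at a log2 fold change of -0.36 ± 0.04 SE (edgeR adjusted p = 8.41e-10). CYP51A1, the lanosterol demethylase, also fell without overlap, with 63.8, 68.0 and 72.9 CPM (lowest, median, highest) in fast and 79.2, 82.9 and 86.7 CPM in parental libraries (-0.29 ± 0.03 SE, edgeR adjusted p = 4.49e-10). In the annotation 3 pseudogenes are named after it, 2 after HSD17B7 and 1 each after SCD and FADS2, and 14 members share exonic bases with another tested gene.

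LSS, which closes squalene epoxide to lanosterol, was the member of this arm that rose most, with 78.6, 83.8 and 94.3 CPM in fast and 66.2, 68.4 and 71.8 CPM in parental libraries (log2 fold change 0.31 ± 0.03 SE, edgeR adjusted p = 1.94e-10). The squalene synthase FDFT1 rose by less (0.08 ± 0.03 SE, edgeR adjusted p = 0.0172). Its libraries overlapped over both batches, it was not called within batch 2 (0.03, adjusted p = 0.509), and the call over both batches was lost without a batch term (0.191), on sums of libraries (0.144) and with a filter of 1 CPM (0.0591). DHCR7, the reductase of the last step to cholesterol, fell by 0.21 on the log2 scale (SE 0.03, edgeR adjusted p = 1.36e-06). Its batch 1 call was lost without fast replicate 1 or parental replicate 3 of that batch (0.0534 and 0.0704). HSD17B7, a sterol ketoreductase, averaged 8.59 ± 0.59 CPM in fast cells and 10.2 ± 1.06 CPM in parental cells (SD, n = 6 each) and fell by 0.25 on the log2 scale (SE 0.06, edgeR adjusted p = 0.000938). In batch 1 it stood just outside the threshold (adjusted p = 0.0502), and in batch 2 it was called (0.00255) except without fast replicate 2 of that batch (0.0526). In batch 1 it was called without fast replicate 1, 2 or 3 of batch 2, parental replicate 1 of batch 1 or parental replicate 3 of batch 2 (0.0194 to 0.0302). It was also called there with DESeq2 size factors (0.0281), the DESeq2 Wald test (0.0307), no filter on low counts (0.0242) and a filter of 1 CPM (0.0167). The sterol reductase TM7SF2 was low, at 2.92 CPM in fast cells, against 2.93 CPM in parental cells. Its log2 fold change of -0.01 had a 95% interval of -0.20 to 0.19 (edgeR adjusted p = 0.956).

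The SREBP control genes moved apart. SCAP and INSIG1, the escort and its anchor, both fell, SREBF2 rose, and SREBF1, which moved in opposite directions in the batches, was not called over both. SCAP (ENSG00000114650) had 71.9, 70.6 and 71.8 CPM in fast libraries of batch 1 and 66.0, 70.5 and 70.4 CPM in those of batch 2. In parental libraries it had 101.2, 101.7 and 104.1 CPM, then 104.5, 105.8 and 101.0 CPM. No fast library came near a parental one (log2 fold change -0.55 ± 0.03 SE, edgeR adjusted p = 2.14e-18).

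SREBF2 (ENSG00000198911), which encodes SREBP2, had 124.9, 127.9 and 126.0 CPM in fast libraries of batch 1 and 114.1, 113.2 and 114.6 CPM in those of batch 2. Parental libraries had 113.4, 100.7 and 111.0 CPM, then 106.4, 110.2 and 103.7 CPM. Fast libraries lay above parental ones within each batch and overlapped them across batches, at 1.12-fold (log2 fold change 0.16 ± 0.03 SE, edgeR adjusted p = 2.97e-05). The summed level of the 4 control genes was 275.1 to 308.7 CPM in fast and 310.5 to 343.5 CPM in parental libraries. That sum joins genes that moved in opposite directions. SCAP alone averaged 70.2 CPM in fast cells and 103.1 CPM in parental cells, while SREBF2 rose. SREBF1 shares 556 exonic bases with RAI1 on the opposite strand, and SREBF2 shares 280 with SREBF2-AS1.

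For 4 members the effect itself differed between batches, where 5.40% of all tested genes did (edgeR quasi-likelihood test of batch 2 minus batch 1). Over all tested genes 396 of these differences were positive and 827 negative under TMM scaling, and 575 and 522 under the size factors of DESeq2. The 4 members were called with either scaling. SREBF1 (ENSG00000072310), which encodes SREBP1, had 53.4, 52.9 and 52.3 CPM in fast libraries of batch 1 and 58.4, 63.0 and 59.3 CPM in the parental ones. In batch 2 it had 46.4, 48.0 and 45.0 CPM in fast and 35.1, 36.5 and 37.9 CPM in parental libraries. Fast cells were thus below parental cells in batch 1 (log2 fold change -0.19, edgeR adjusted p = 0.000243) and above them in batch 2 (0.35, adjusted p = 4.43e-09), without overlap in either. The difference was 0.54 ± 0.06 SE (adjusted p = 2.54e-08).

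ABCA1 (ENSG00000165029), the exporter of cholesterol to lipoproteins, had 9.09, 9.17 and 9.35 CPM in fast libraries of batch 1 and 9.37, 8.12 and 8.47 CPM in the parental ones, which overlap. In batch 2 both populations were far lower, at 2.17, 2.64 and 2.303 CPM in fast and 1.079, 1.22 and 1.46 CPM in parental libraries, and there the fast ones were all higher. The log2 fold change was 0.09 in batch 1 (edgeR adjusted p = 0.48) and 0.91 ± 0.14 SE in batch 2 (adjusted p = 2.16e-07), a difference of 0.82 ± 0.17 SE (adjusted p = 0.00132). The call over both batches (0.39, adjusted p = 0.00408) was lost on sums of libraries (adjusted p = 0.132) and without a batch term (0.814).

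INSIG1 (ENSG00000186480) had 57.2, 57.4 and 56.2 CPM in fast libraries of batch 1 and 67.7, 66.1 and 69.1 CPM in the parental ones. In batch 2 it had 48.6, 50.2 and 46.9 CPM in fast and 67.6, 68.7 and 67.9 CPM in parental libraries. It fell in both batches without overlap, and by more in batch 2 (-0.49) than in batch 1 (-0.25), a difference of -0.24 ± 0.06 SE (edgeR adjusted p = 0.00512). IDI1 rose by less in batch 2 (0.32) than in batch 1 (0.56), a difference of -0.24 ± 0.06 SE (adjusted p = 0.00619). Relative to chromosomal neighbours the difference of IDI1 was -0.05 and was not called (edgeR adjusted p = 0.677). The difference of INSIG1 was no longer called without fast replicate 1 or 3 of batch 2 (edgeR adjusted p = 0.0686 and 0.126), and that of IDI1 without any 1 of the 3 fast libraries of batch 2 or without parental replicate 2 of batch 2 (0.0513 to 0.144). Those of SREBF1 and ABCA1 were called whichever library was left out.

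**Figure D2:**
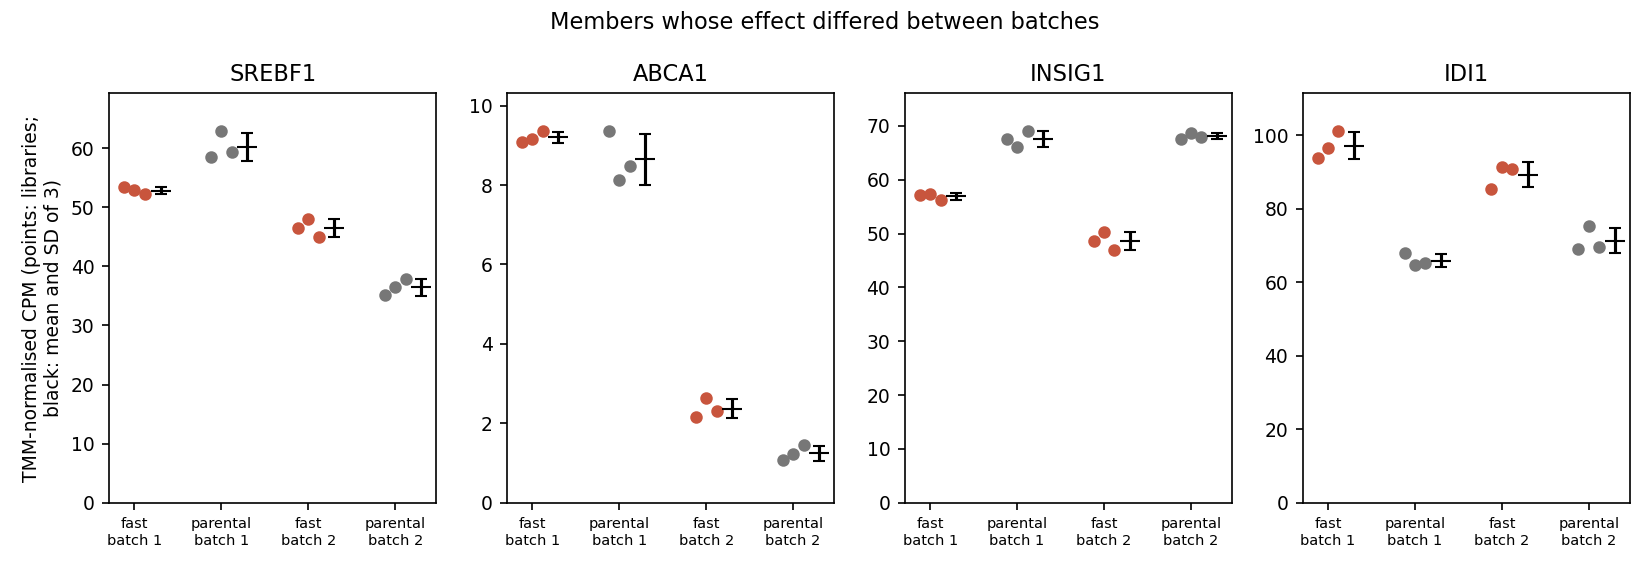
The 4 members whose effect differed between batches, with a panel each: points are libraries, black marks the mean and SD of 3 libraries, and the y axis is TMM-normalised CPM from 0. SREBF1 is lower in fast than in parental cells in batch 1 and higher in batch 2; ABCA1 is low in both populations of batch 2.

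**Figure D3:**
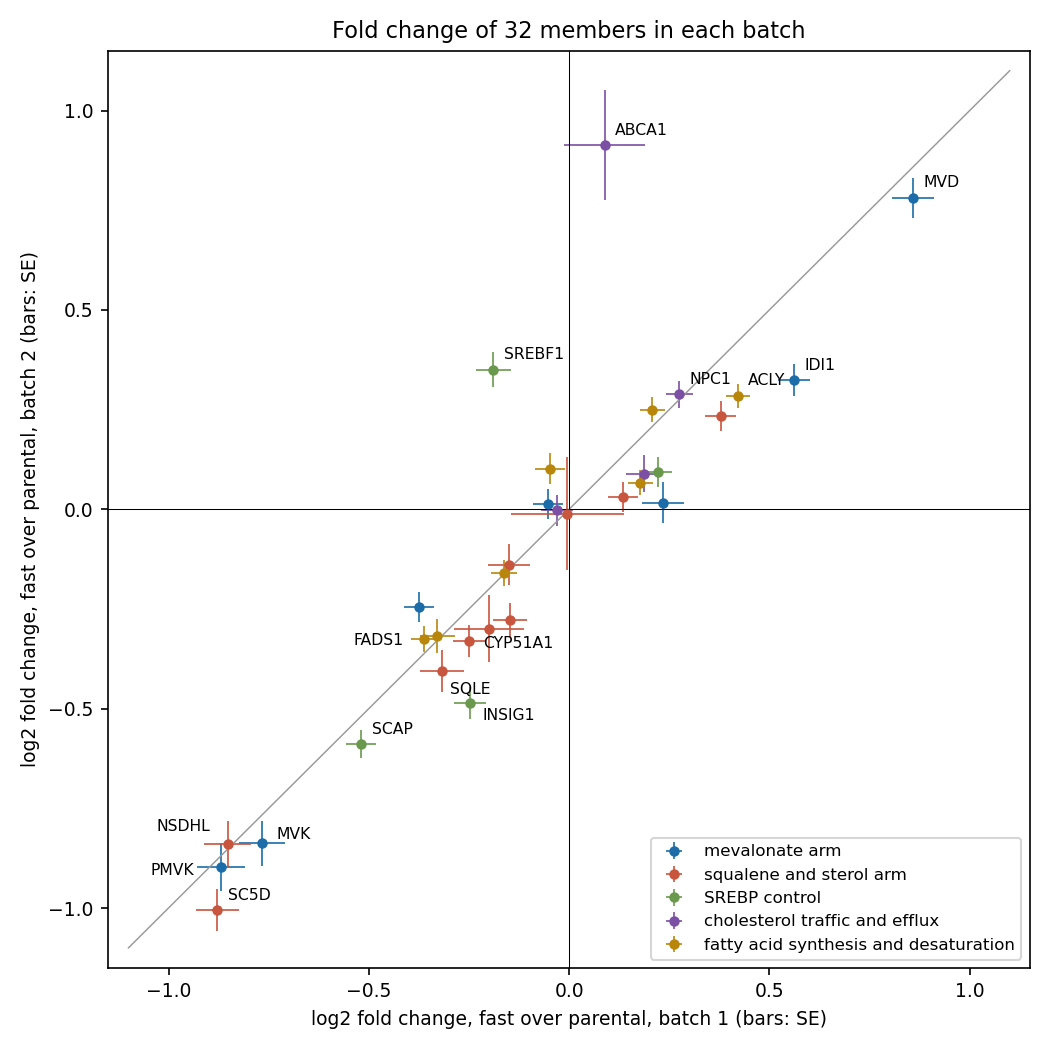
Log2 fold change of each tested member in batch 1 (x axis) and batch 2 (y axis), fast over parental, with bars for the SE and colours for the role; the grey line marks equal change. MVD lies at the upper right, SC5D, PMVK, NSDHL and MVK at the lower left, and SREBF1 and ABCA1 lie off the line.

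Of the 32 tested members 29 had the same sign in both batches, a count not made over all tested genes. Those with opposite signs were SREBF1, ACAT2 and ACACA. The median size of the difference between batches was 0.09 for the members and 0.14 for all tested genes.

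Of the 4 tested genes of cholesterol traffic and efflux 3 rose over both batches (NPC1, STARD4 and ABCA1) and NPC2 was not called. Among all tested genes 31.9% were called higher and 31.5% lower. Relative to chromosomal neighbours NPC1, STARD4 and NPC2 (0.28, edgeR adjusted p = 1.15e-09) were called higher, and ABCA1 was not called (0.12, 0.405). By that measure 5821 of all 21807 genes were called higher and 6502 lower. NPC1, the lysosomal membrane protein that exports cholesterol, had 133.6, 140.8 and 151.0 CPM (lowest, median, highest) in fast and 107.5, 114.7 and 126.7 CPM in parental libraries, without overlap (log2 fold change 0.28 ± 0.03 SE, edgeR adjusted p = 1.53e-11). It overlaps RMC1 by 604 exonic bases on the opposite strand. NPC2, its soluble partner, averaged 83.8 ± 2.67 CPM in fast cells, against 84.7 ± 3.59 CPM in parental cells (SD, n = 6 each), with a log2 fold change of -0.01 (95% interval -0.07 to 0.04, edgeR adjusted p = 0.679). STARD4, a soluble sterol carrier, was higher in fast cells by 0.14 ± 0.03 SE on the log2 scale (edgeR adjusted p = 0.000901), a call lost without a batch term (adjusted p = 0.0672). In batch 2 alone it was not called (0.0969), but was without fast replicate 2 of batch 2, parental replicate 1 of batch 1 or parental replicate 3 of batch 2 (0.0451, 0.0487 and 0.00152). The summed level of the traffic and efflux genes was 292.7 to 301.1 CPM in fast and 259.4 to 275.9 CPM in parental libraries of batch 1, and 263.7 to 269.5 CPM against 233.2 to 243.0 CPM in batch 2.

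With 31.9% of all tested genes called higher over both batches and 31.5% lower, 3 of the 7 fatty acid genes rose. A further 3 of these fatty acid genes fell and 1 was not called. Relative to their chromosomal neighbours 2 were called higher (ACLY 0.077 and FASN 0.15 on the log2 scale) and 3 lower (SCD -0.12, ACACA -0.11 and FADS1 -0.16), with edgeR adjusted p of at most 0.00683. ELOVL6 and FADS2 were then not called (edgeR adjusted p = 0.876 and 0.0878). Of all 21807 genes measured this way, 5821 were called higher and 6502 lower. ACLY (ENSG00000131473), which makes acetyl-CoA from citrate for both fatty acids and sterols, had 486.2, 482.9 and 473.3 CPM in fast libraries of batch 1 and 450.8, 461.7 and 455.8 CPM in those of batch 2. Parental libraries had 369.1, 357.9 and 350.8 CPM, then 380.5, 380.3 and 362.2 CPM. It rose 1.28-fold without overlap (log2 fold change 0.35 ± 0.03 SE, edgeR adjusted p = 6.75e-14). FASN, fatty acid synthase, rose by 0.12 ± 0.03 SE (edgeR adjusted p = 9.58e-05) and SCD, the stearoyl desaturase, by 0.23 ± 0.02 SE (adjusted p = 8.2e-10). FASN was not called within batch 2 (0.07, adjusted p = 0.0596), but was with the size factors of DESeq2 (0.0408) and on leaving out any 1 library other than fast replicate 2 and parental replicates 1 and 2 of batch 2 (0.00116 to 0.0337). For SCD the call over both batches was lost without a batch term (0.0523), its levels being 292.4 to 300.3 CPM in fast and 247.2 to 268.4 CPM in parental libraries of batch 1, and 240.8 to 243.9 CPM against 198.0 to 209.4 CPM in batch 2. Within each batch the populations did not overlap.

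The elongase ELOVL6 and the desaturases FADS1 and FADS2, which act on polyunsaturated fatty acids, fell. ELOVL6 had 58.9, 60.6 and 68.6 CPM (lowest, median, highest) in fast and 74.6, 76.4 and 83.9 CPM in parental libraries (log2 fold change -0.32 ± 0.03 SE, edgeR adjusted p = 1.64e-10). FADS1 had 164.5, 179.8 and 197.6 CPM in fast and 204.7, 228.1 and 251.3 CPM in parental libraries (-0.34 ± 0.03 SE, adjusted p = 4.51e-14). FADS2 fell by 0.16 on the log2 scale (SE 0.03, adjusted p = 9.22e-07), its libraries overlapping across batches. FADS1 and FADS2 share 490 exonic bases on opposite strands. ACACA, acetyl-CoA carboxylase, was not called over both batches (0.03, 95% interval -0.04 to 0.09, edgeR adjusted p = 0.486). In batch 1 ACACA was not called (-0.05, edgeR adjusted p = 0.303). It was called lower there with a filter of 1 CPM (-0.089, 0.0355) and relative to neighbours (-0.20, 1.44e-05). In batch 2 it was called higher (0.10, adjusted p = 0.0222), but not without parental replicate 2 of that batch (adjusted p = 0.107). Without parental replicate 3 of batch 2 it was called at 0.16.

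Levels of different genes were set side by side per length, as CPM per kilobase of merged exons. By this measure ACLY was the most abundant, at 89.8 in fast and 70.3 in parental cells, followed by FASN (51.3 and 47.1) and SCD (50.3 and 43.0). Of the sterol enzymes, FDPS was the most abundant (34.2 and 42.4). SC5D (3.56 and 6.86), MVK (2.93 and 5.11) and HSD17B7 (1.8 and 2.14) were among the least, above TM7SF2 (0.856 and 0.861) and ABCA1 (0.51 and 0.436). PMVK stood at 15.1 in fast and 27.9 in parental cells and MVD at 11.7 and 6.63. PMVK was thus above MVD in both populations when scaled to merged exons of 1280 and 4717 bases. Before this scaling MVD was the higher of the pair in fast cells (55.14 CPM on average, PMVK 19.39 CPM). In parental cells PMVK was (35.74 CPM, MVD 31.28 CPM). Ranks by length depend on the GENCODE 29 exons, and which transcripts these cells hold was not tested.

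**Figure D4:**
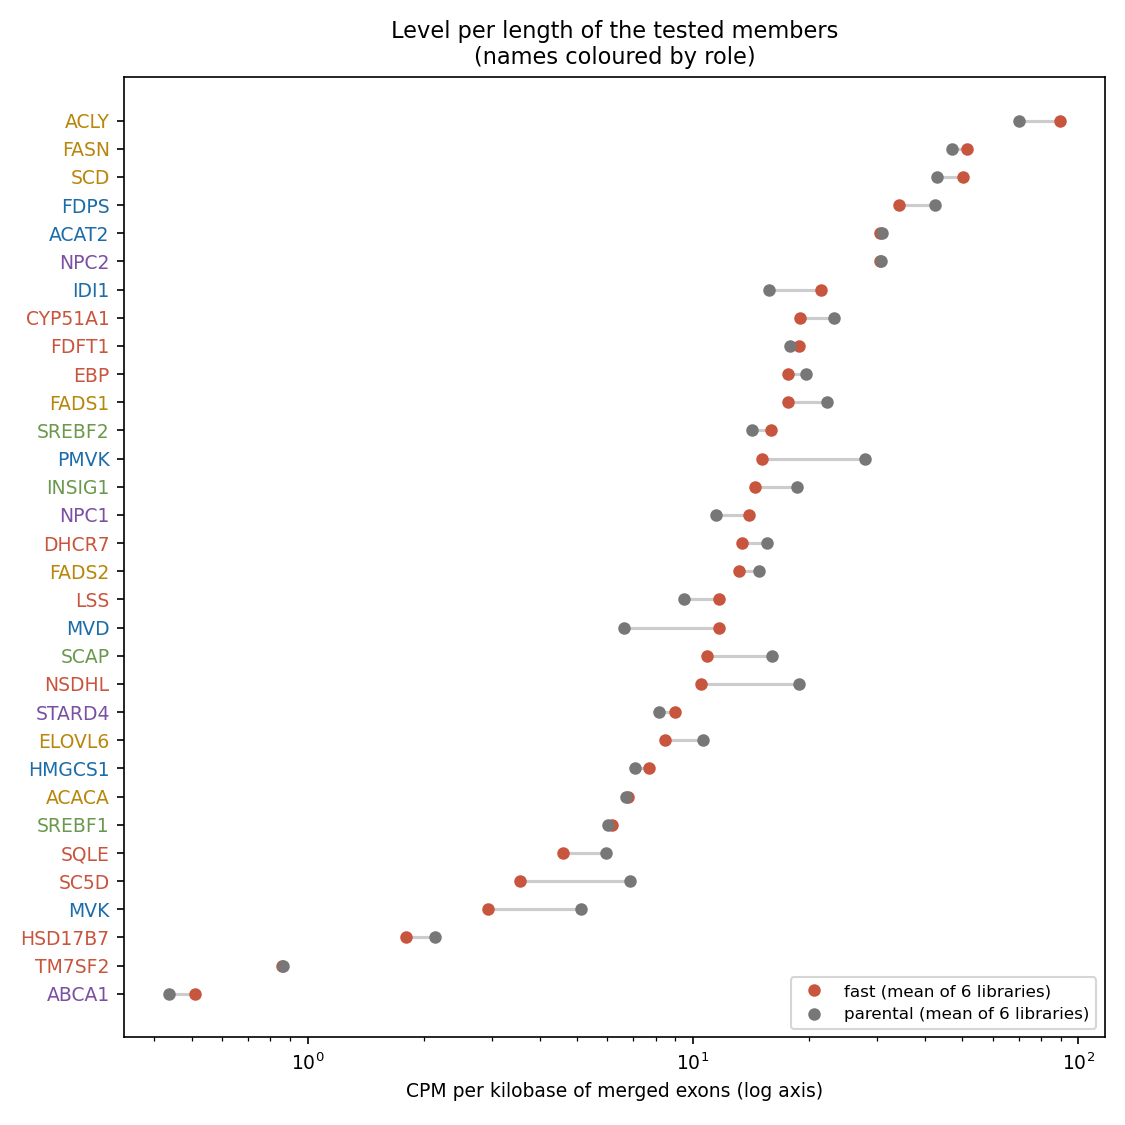
Level of each tested member as CPM per kilobase of merged exons (x axis, log scale), mean of 6 fast libraries in red and of 6 parental libraries in grey, with names on the y axis coloured by role as in the other plots. ACLY is the highest in both populations and ABCA1 the lowest; the widest gaps are those of SC5D, PMVK, MVD, NSDHL and MVK.

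Many members changed in the direction of the genes beside them on the chromosome. For each member the median log2 fold change of 20 neighbours (10 tested genes on each side at 1 CPM or more, GENCODE 29 order) was set beside its own, and 26 of 32 members had the sign of their neighbours. The same share was not worked out for all tested genes. Among the autosomes the share of genes below 0 ran from 16.5% on chromosome 10 to 75.7% on chromosome 11. On the X chromosome 502 genes had a median log2 fold change of -0.60, and 88.2% of them were below 0. The neighbours of NSDHL had a median of -0.62 and those of EBP one of -0.56. Relative to its neighbours NSDHL was lower by a smaller margin (-0.22 ± 0.04 SE, edgeR adjusted p = 4.9e-05) and EBP was higher (0.41 ± 0.04 SE, adjusted p = 8.17e-11). The neighbour median entered every centred fit as a fixed value. The SEs and p-values of centred values therefore leave out the spread among the 20 neighbours. NSDHL, at -0.845, lay within the quartiles of the X genes (-0.878 to -0.294).

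The neighbours of SC5D and MVK had medians of -0.06 and -0.08. After centring on these medians the falls of SC5D and MVK were -0.89 and -0.73 (edgeR adjusted p = 3.52e-19 and 4.73e-16). A median does not speak for each neighbour, and MMAB, which overlaps MVK, was itself at -0.49. PMVK kept a fall of -0.56 against neighbours at -0.33. CYP51A1 (-0.37, with neighbours at 0.07) and INSIG1 (-0.32, with neighbours at -0.05) were also lower after centring (edgeR adjusted p = 2.08e-12 and 7.75e-10). The neighbours of MVD rose with it, at a median of 0.57, leaving 0.25 ± 0.04 SE (edgeR adjusted p = 1.57e-06). SCAP retained -0.15 against neighbours at -0.41 (adjusted p = 1.97e-05), and ELOVL6 retained -0.01 against neighbours at -0.32 (adjusted p = 0.876). Within batch 1 the centred value of SCAP was -0.21 (edgeR adjusted p = 4.77e-06). Within batch 2 that of SCAP was -0.076 and not called (0.0782). NPC1 and STARD4 rose among neighbours that were lower, at -0.14 and -0.32, so that their centred values were larger, at 0.42 and 0.46 (adjusted p = 3.03e-15 and 2.24e-13). After centring 12 members were called higher and 12 lower, where 5821 and 6502 of all 21807 genes so fitted were. Of the 20 members called both before and after, 16 had the same sign and 4 the opposite one (FDPS, HSD17B7, EBP and SCD).

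**Figure D5:**
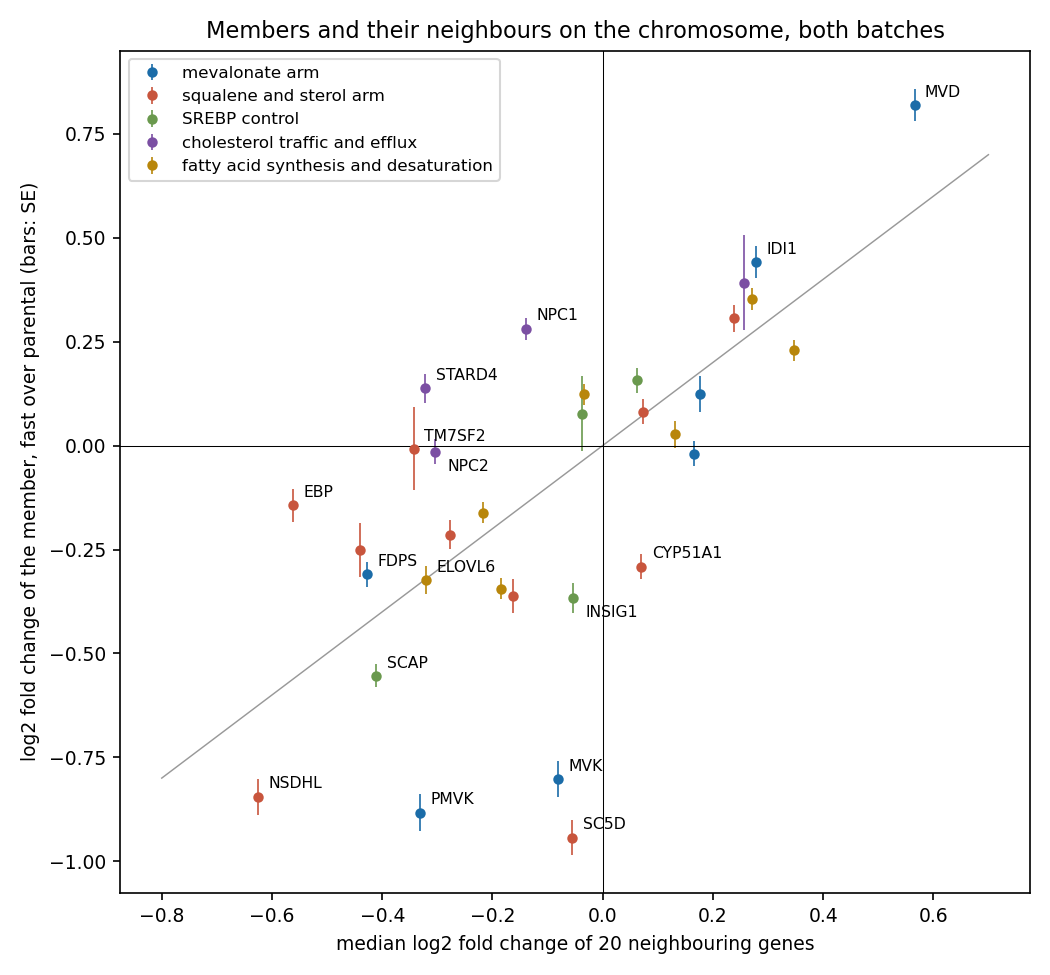
Log2 fold change of each tested member over both batches (y axis, bars: SE) against the median of its 20 neighbours on the chromosome (x axis), coloured by role; the grey line marks equal values. MVD and NSDHL lie at the ends of the line, with neighbour medians of the same sign, while SC5D and MVK lie far below neighbour medians near 0.

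Around these members stand 82 further lipid genes in 6 lists, of which 76 were tested, with 34 higher in fast cells, 29 lower and 13 not called over both batches, where 31.9% of all tested genes were called higher and 31.5% lower. Their median log2 fold change was 0.01. Of 10 other sterol synthesis genes 4 rose and 5 fell, among them IDI2, a relative of IDI1 (log2 fold change 0.44), and C14orf1, a scaffold of the demethylation enzymes (-0.39). Of 9 genes of SREBP processing and turnover 4 rose and 4 fell. The Golgi protease MBTPS1, which makes the first cut in SREBPs, averaged 137.6 ± 3.59 CPM in fast cells, against 93.1 ± 1.93 CPM in parental cells (SD, n = 6 each; 0.56, with neighbours at 0.58). The kinase GSK3B rose (0.48), and the ubiquitin ligases RNF139 (-0.29) and FBXW7 (-0.28) fell (edgeR adjusted p at most 3.56e-05 for each of these 6 genes).

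Of 11 genes of sterol uptake, esterification and release 3 rose and 4 fell, where 31.9% of all tested genes were called higher and 31.5% lower. LIPA, the lysosomal acid lipase, averaged 80.8 ± 3.05 CPM in fast cells, against 52.2 ± 4.57 CPM in parental cells (log2 fold change 0.63, with neighbours at 0.63). SOAT1, which esterifies cholesterol for storage, rose by 0.46 and the lipoprotein receptor LRP8 fell by 0.42 on the log2 scale. Of 13 genes of oxysterol sensing, efflux and transfer 7 rose and 5 fell. GRAMD1B, which carries cholesterol from the plasma membrane to the endoplasmic reticulum, averaged 11.6 ± 2.36 CPM in fast cells, against 5.35 ± 0.537 CPM in parental cells (1.098 ± 0.07 SE). CYP27A1, a sterol hydroxylase, rose by 0.81 and the oxysterol-binding OSBP fell by 0.37 (edgeR adjusted p at most 2.91e-09 for LIPA, SOAT1, LRP8, GRAMD1B, CYP27A1 and OSBP). The oxysterol hydroxylase CYP7B1 had 0 counts over the 6 fast libraries and 1168 over the 6 parental libraries. Against a floor of 3 counts over the group it was at least 397-fold lower.

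Of 18 further fatty acid genes 6 rose and 8 fell, where 31.9% of all tested genes were called higher and 31.5% lower. ME1, malic enzyme, a source of NADPH for lipid synthesis, averaged 32.1 ± 4.64 CPM in fast cells, against 17.8 ± 0.795 CPM in parental cells (log2 fold change 0.84), and ACSL5, an acyl-CoA synthetase, 143.4 ± 22.2 and 80.2 ± 7.64 CPM (0.83). The elongase ELOVL7 (-1.24) and ACACB, the mitochondrial carboxylase relative of ACACA (-0.92), fell. Of 15 genes of lipid import, storage and oxidation 10 rose and 3 fell, with AGPAT2 (0.74) and the fatty acid transporter SLC27A1 (0.56) up and SLC27A3 (-0.88) and CPT1A (-0.34), which admits fatty acids to mitochondria, down. Each of these 8 genes was called over both batches (edgeR quasi-likelihood test, adjusted p at most 8.91e-06). None of the 6 lists was tested as a set.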

How the data were processed

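Total RNA of cultured cells was sequenced in 12 libraries. The deposited table holds whole-number read counts for each gene, which the authors left unnormalized. Per the submitters' processing notes, Trimmomatic 0.32, STAR 2.3.0e, featureCounts 1.4.4 and the builds hg19 and GRCh37 were used; how reads on overlapping genes, on either strand or with several matches were counted is not stated there.

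The counts were analysed in R 4.3.3 with edgeR 4.0.16, using TMM scaling, its filter on low counts (minimum count 10, minimum total 15, by population and batch, which left 22668 of 60234 genes) and a robust quasi-likelihood fit. A model with a mean for each of the 4 groups gave the effects within each batch and their difference; a model with batch as an additive term gave the effect over both. Adjusted p-values are Benjamini-Hochberg values over all genes tested, with a threshold of 0.05, and SEs were derived from the F statistics. The steps were tested on simulated counts. Replicate pairs all differed beyond counting noise (dispersion indices of 3.41 to 8.78), so each library was kept. Gene order, exon overlaps and exon lengths came from GENCODE 29 by gene ID, or by symbol for 267 genes; 96.2% of the tested genes were placed. TM7SF2 had 1156 counts over the fast and 1141 over the parental libraries, the fewest among the tested members.

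Alternatives were DESeq2 1.42.0 and its size factors, limma-voom (limma 3.58.1), other filters on low counts, a replicate block, each library left out, sums of libraries, no batch term, and centring on neighbouring genes.

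The members, the gene lists and the tests were chosen with earlier results of these data known. Given with values in every library were the 10 members with the largest change called in both batches with 1 sign, the 3 with the largest called difference between batches, the X-linked members, SREBF1 and SREBF2; IDI1, also called for that difference, is shown with them. Named from each further list were up to 2 called genes per direction with the largest change at 1 CPM or more. Some genes that this rule names are not reported here.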

Additional observations from a re-analysis of the deposited data

Results flagged for a closer look

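The effect of the population differed between batches for 4 members (edgeR quasi-likelihood test of batch 2 minus batch 1, Benjamini-Hochberg adjusted p under 0.05). SREBF1 differed by 0.539 on the log2 scale (adjusted p = 2.54e-08), with fast below parental cells in batch 1 (-0.189) and above them in batch 2 (0.35). ABCA1 differed by 0.824 (adjusted p = 0.00132), with 0.089 in batch 1 and 0.913 in batch 2. INSIG1 differed by -0.239 (adjusted p = 0.00512), with -0.248 in batch 1 and -0.486 in batch 2, and IDI1 by -0.237 (adjusted p = 0.00619), with 0.561 and 0.324. SREBF1 averaged 52.8 CPM in fast and 60.2 CPM in parental libraries of batch 1, and 46.5 CPM in fast and 36.5 CPM in parental libraries of batch 2. ABCA1 stood at 9.09 to 9.35 CPM in fast and 8.12 to 9.37 CPM in parental libraries of batch 1, and at 2.17 to 2.64 CPM in fast and 1.079 to 1.46 CPM in parental libraries of batch 2. The part of the batch in these differences was not tested.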

How the results depend on the processing

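The counts of members called stayed within 1.5 times under every alternative that was run, and some reached that limit. Members lower in batch 2 went from 15 to 10 on centring on neighbouring genes. Differences between batches went from 4 to 6 with a filter of 1 CPM. A steady count need not be made up of the same members or signs. Leaving out each library in turn gave 12 members higher and 15 lower over both batches throughout, 11 higher and 14 to 17 lower in batch 1, 9 to 12 higher and 13 to 15 lower in batch 2, and 3 to 6 differences between batches. Without a batch term 8 members were called higher over both batches, and with the 3 libraries of a population within a batch summed 9 were, with 15 and 14 lower. Calls gained by leaving out 1 library, beside those given with the results, were ACAT2 in batch 1 (without fast replicate 1 of batch 2, edgeR adjusted p = 0.0488) and differences between batches for ACACA (without fast replicate 1 or 3 or parental replicate 3 of batch 2, 0.00583 to 0.031), FDPS (without fast replicate 1 or 2 of batch 2, 0.0141 and 0.0493), and HMGCS1 (0.0149) and ACLY (0.028), each without parental replicate 1 of batch 1. ACAT2 in batch 1 was also called lower with no filter on low counts (edgeR adjusted p = 0.0493), a filter of 1 CPM (0.0215) and centring on neighbouring genes (3.51e-08). The difference of ACACA was also called with DESeq2 size factors (0.0422), the DESeq2 Wald test (0.0213), no filter on low counts (0.00655), a filter of 1 CPM (0.0246) and centring on neighbouring genes (0.0272). That of FDPS was also called under the last 3 of these (0.00827, 0.0341 and 0.00216), and that of ACLY with limma-voom (0.0224). Without a filter on low counts the differences of IDI1 (0.0508) and INSIG1 (0.0814) were lost. With limma-voom the log2 fold change of ABCA1 over both batches was 0.26 in place of 0.39.

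Among values called before or after, only centring on neighbouring genes reversed a sign (log2 fold changes in batch 1, batch 2 and both): HSD17B7 0.22, 0.23 and 0.19, EBP 0.40, 0.43 and 0.41, DHCR7 0.092, 0.001 and 0.059, NPC2 0.24, 0.27 and 0.28, SCD -0.17, -0.093 and -0.12, and FADS2 0.06, 0.075 and 0.05. In batch 2 and both it gave FDPS 0.21 and 0.11, TM7SF2 0.35 and 0.33, and ACACA -0.027 and -0.11; in batch 2 alone ACAT2 -0.15 and ELOVL6 0.069; over both HMGCS1 -0.057. HMGCS1 in batch 2 (-0.074), TM7SF2 in batch 1 (0.30) and ABCA1 in batch 1 (-0.20) turned sign too, called neither before nor after. Other uncalled values near 0 turned sign under several alternatives, such as ACAT2 over both batches on leaving out 1 library (-0.034 to 0.007). Of these ACAT2 in batch 2, TM7SF2, NPC2 and ACACA over both batches were not called before. The calls of 7 members over both batches were lost: ABCA1, ELOVL6, FDFT1, LSS, HMGCS1, DHCR7 and FADS2 (edgeR adjusted p = 0.405, 0.876, 0.927, 0.0784, 0.252, 0.128 and 0.0878), and so was the batch difference of IDI1 (-0.05, 0.677). The cause was not tested.

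With the replicate number as a block, 12 members were called higher and 15 lower over both batches, and no call of a member changed. Deviations of same-numbered fast and parental libraries correlated at -0.076 to 0.074, and those of differently numbered ones at -0.163 to 0.153. With 3 libraries per group these values cannot tell whether the numbers stand for a pairing. Some batch 1 libraries carry another number in their description than in their title, and a pairing by that number was not tested.

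All libraries come from 1 line. The series does not say whether a batch is a separate culture or capture; if it is, each comparison within a batch rests on 1 biological sample per population. ABCA1 and TM7SF2, the tested members with the lowest levels, had the largest SEs over both batches (0.114 and 0.1), and ABCG1 was too low to test.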
